A study of Mus musculus with 12 samples.

Results

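The genes described here are the nuclear genes of respiratory complexes I, III and IV and of the ATP synthase, measured by RNAseq in mouse kidney cortex. They were chosen by symbol from the 37681 Ensembl mouse genes of the deposited table: symbols that begin with Nduf followed by a, b, c, s or v and a digit, with Uqcr, with Cox5 to Cox8, or with Atp5. Of 88 genes matched in this way, 6 were left out by name (Ndufa4, Ndufa4l2, Cox6a1, Cox6a2, Cox7a1 and Cox7a2), 10 were pseudogenes, and 3 (Cox7b2, Cox8b and Cox8c) had fewer than 50 reads over all libraries. The remaining 69 genes comprise 35 of complex I, 8 of complex III, 9 of complex IV and 17 of the ATP synthase. The symbol rule also takes in Atp5s and Cox7a2l, which are related factors and not subunits in the strict sense. It does not take in Cyc1, the cytochrome c1 of complex III, or Cox4i1, a complex IV subunit, which are treated as comparison genes.

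The study set kidney cortex of 3 TRACK mice (TG+) against that of 3 wild-type littermates (TG-), all male, on a C57BL/6 background and 18 months of age. TRACK is a mouse model of clear cell renal cell carcinoma. The TG+ mice carry γ-HIF1αM3 (GGT-HIF1aM3 in the series title), a mutated HIF1α that stays active in the presence of oxygen and that the study places in renal proximal tubules. Both genotypes were untreated, and a thin outer cortex slice of each of the 2 kidneys gave 1 library, so 12 libraries came from 6 mice. The TG+ mice are 43-29, 43-49 and 43-75, and the TG- mice are 43-26, 43-50 and 43-76. The transgene is described as active in 1 cell type of a slice that holds several, and the slice was not sorted.

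The respiratory chain passes electrons from NADH through complex I, ubiquinone, complex III and cytochrome c to oxygen at complex IV, and the ATP synthase uses the resulting proton gradient to make ATP. Each of these assemblies combines a few subunits encoded by mitochondrial DNA with many encoded in the nucleus, which are the genes counted here. Proximal tubule cells depend on this pathway for solute transport and are rich in mitochondria, and HIF1α is best known for raising glycolytic genes and for directing pyruvate away from mitochondria.

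Reads on genes summed over both kidneys ranged from 48052131 to 60506785 per mouse, and the 69 genes took between 1.137% and 1.243% of them. Values are given as CPM, read counts scaled to a common library size after correction of that size by the TMM method. The TMM factors lay between 1.03 and 1.065 in TG+ and between 0.9442 and 0.9678 in TG-, so this correction alone lowers TG+ values relative to TG- values. All 12 genes of a glycolysis reference list, from Slc2a1 to Pdk1, were called higher in TG+ (edgeR's quasi-likelihood test), which matches the genotype labels. The 18 proximal tubule markers were all detected in every mouse, as a check of the tissue.

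The promoters of a few of these genes are printed first because their position and letters give context for the values that follow. They are the 250 bases before the annotated start of Atp5b and Uqcrfs1, which fell most in their complexes, of Ndufv3 and of Cox8a. Ndufv3 is the 1 gene called higher. Cox8a had the highest RPKM (reads per kilobase of gene and per unit of depth) in TG- among the 9 complex IV genes of the rule. All sequences are from RefSeq, build GRCm38.p6, written 5′ to 3′ on the strand of the gene. Capitals mark the hypoxia response core, ACGTG or GCGTG on either strand. The intervals are chr10:128083057-128083306 on the plus strand for Atp5b, chr13:30545317-30545566 on the minus strand for Uqcrfs1, chr17:31519865-31520114 on the plus strand for Ndufv3 and chr19:7217617-7217866 on the minus strand for Cox8a.
Atp5b: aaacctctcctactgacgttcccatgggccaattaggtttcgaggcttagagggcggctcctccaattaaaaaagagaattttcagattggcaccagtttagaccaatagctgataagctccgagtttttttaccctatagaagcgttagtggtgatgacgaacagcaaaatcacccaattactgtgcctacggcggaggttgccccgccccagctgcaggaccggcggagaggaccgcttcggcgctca
Uqcrfs1: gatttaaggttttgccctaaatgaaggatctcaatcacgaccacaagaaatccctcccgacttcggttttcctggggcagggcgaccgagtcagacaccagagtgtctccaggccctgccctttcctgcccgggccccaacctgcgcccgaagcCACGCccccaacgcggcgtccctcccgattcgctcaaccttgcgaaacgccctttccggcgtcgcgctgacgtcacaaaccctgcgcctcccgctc
Ndufv3: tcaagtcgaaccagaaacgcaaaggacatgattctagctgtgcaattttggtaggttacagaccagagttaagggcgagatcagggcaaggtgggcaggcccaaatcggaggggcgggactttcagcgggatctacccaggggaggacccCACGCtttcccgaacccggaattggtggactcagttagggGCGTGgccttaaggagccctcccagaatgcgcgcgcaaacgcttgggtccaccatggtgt
Cox8a: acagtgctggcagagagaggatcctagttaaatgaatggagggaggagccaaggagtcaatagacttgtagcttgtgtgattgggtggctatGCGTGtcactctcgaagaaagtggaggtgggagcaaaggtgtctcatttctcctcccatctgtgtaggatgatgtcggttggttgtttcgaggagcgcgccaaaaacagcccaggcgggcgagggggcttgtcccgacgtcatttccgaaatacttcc

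The Atp5b stretch holds no such core, the Uqcrfs1 and Cox8a stretches hold 1 each, and the Ndufv3 stretch holds 2. With the 50 bases after the start added, Atp5b does hold a core, in the GCGTG form. Over the window from 250 bases before to 50 bases after the start, 57 of the 69 genes had a RefSeq promoter. Of the 57, 35 (61.4%) held a hypoxia response core, against 46.7% of 27025 genes of all kinds. The ACGTG form was in 22.8%, against 21.8%, and the GCGTG form in 50.9%, against 35.2%. The 27025 genes were not matched for base composition. Among genes later called lower in TG+, 5 of the 7 with a promoter in the table held a core of either form. The windows were also searched on both strands for GCGCANGCG, the core of sites for NRF1, a transcription factor known for driving nuclear respiratory genes. It was found in 17 of the 57 windows (29.8%), against 7.03% of the 27025. AANATGGCG, a YY1 site, was in 10 (17.5%, against 2.76%), CCGGAAGT, an ETS site of the GABPA type, in 5 (8.77%, against 4.31%), and TCAAGGTCA, a site for estrogen-related receptors, in 1 (1.75%, against 0.466%). These are matches of letters and not measured binding.

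The NRF1 core stood in genes of complexes I and III and of the ATP synthase, and in the promoters of 2 of the 7 genes called lower, Atp5l and Uqcrc1. Those are printed with Ndufb10, which missed the threshold by the least, Uqcr11, a small complex III subunit, and Atp5g2, a c ring gene, so that sites of called and uncalled genes can be compared. The core is in capitals, in whichever orientation it occurs on the gene's strand. The intervals are chr9:44920965-44920992 on the minus strand for Atp5l, chr9:108936644-108936672 on the plus strand for Uqcrc1, chr17:24724407-24724435 on the minus strand for Ndufb10, chr10:80406808-80406836 on the minus strand for Uqcr11 and chr15:102671071-102671099 on the minus strand for Atp5g2.
Atp5l: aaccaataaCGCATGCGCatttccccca
Uqcrc1: ttccttacagCGCTTGCGCctcagactcc
Ndufb10: tcacctttctGCGCAGGCGtagaggtccc
Uqcr11: atcgccttcaCGCATGCGCtatacgtctg
Atp5g2: ggctccggccGCGCATGCGcagagccttc

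The first comparison asked how far the nuclear respiratory genes differed between TG+ and TG- cortex. In TG+ kidney cortex 13 of the 69 genes were lower and 1 was higher at an adjusted p below 0.05 (quasi-likelihood test of edgeR, Benjamini-Hochberg adjusted over the 19399 genes with enough reads, all 69 among them). The lower genes included Ndufs1, Ndufa10, Ndufs8 and Ndufb9 of complex I, Uqcrfs1, Uqcrc1 and Uqcrc2 of complex III, and Atp5b, Atp5l, Atp5f1, Atp5a1 and Atp5d of the ATP synthase. The higher gene was Ndufv3 of complex I. No complex IV gene was called in either direction. The differences were small: the largest was 0.31 on the log2 scale, and none reached a factor of 2.

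The share called lower, 18.8%, is to be read against 10.9% of all genes tested. The genes are abundant, however, and 24.1% of the 5636 genes with a mean of at least 32 CPM were called lower, against 25% (13 of 52) of the respiratory genes at that level. A share near the background at like abundance is thus what the calls give. For the higher direction the share was 1.45%, against 15.4% of all genes tested and 10.6% of those at 32 CPM or more. At the stricter threshold of the study, where the adjusted p must be under 0.01 and the fold change over 2 or under 0.5, edgeR called 0 of the 69, against 0.211% of all genes tested lower and 3.77% higher. DESeq2 also called 0 at that threshold. An unadjusted p below 0.05 in edgeR was found for 26 of the 69 (37.7%), against 39.1% of all genes tested, and for 24 of the 52 at 32 CPM or more (46.2%), against 49.2% of all genes at that level.

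The direction was more uniform than the calls. Under TMM scaling 64 of the 69 log2 fold changes were below 0 and 5 above, with a median of -0.12, against 0.012 over all genes tested and -0.078 over genes at 32 CPM or more. In 38 of the 69 genes (55.1%) every TG+ mouse lay below every TG- mouse, against 20.8% of all genes tested and 39.2% of those at 32 CPM or more. The reverse held for 1 gene (1.45%), against 23.4% and 14.6%. With libraries scaled by size alone, 33 of the 69 were above 0 and the median was -0.0020, while the median of all genes tested moved from 0.012 to 0.13. Relative to that median of all genes the respiratory genes lay at -0.13 under both scalings. A change of scaling shifts every gene by nearly the same amount, so this value had to stay and is no check of the scaling. Across all genes tested, the share of calls that were lower was 41.4% under TMM scaling and 17.4% with size alone. Statements of higher or lower below are for TMM scaling, and the ratios within a mouse further on need no scaling.

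**Figure D1:**
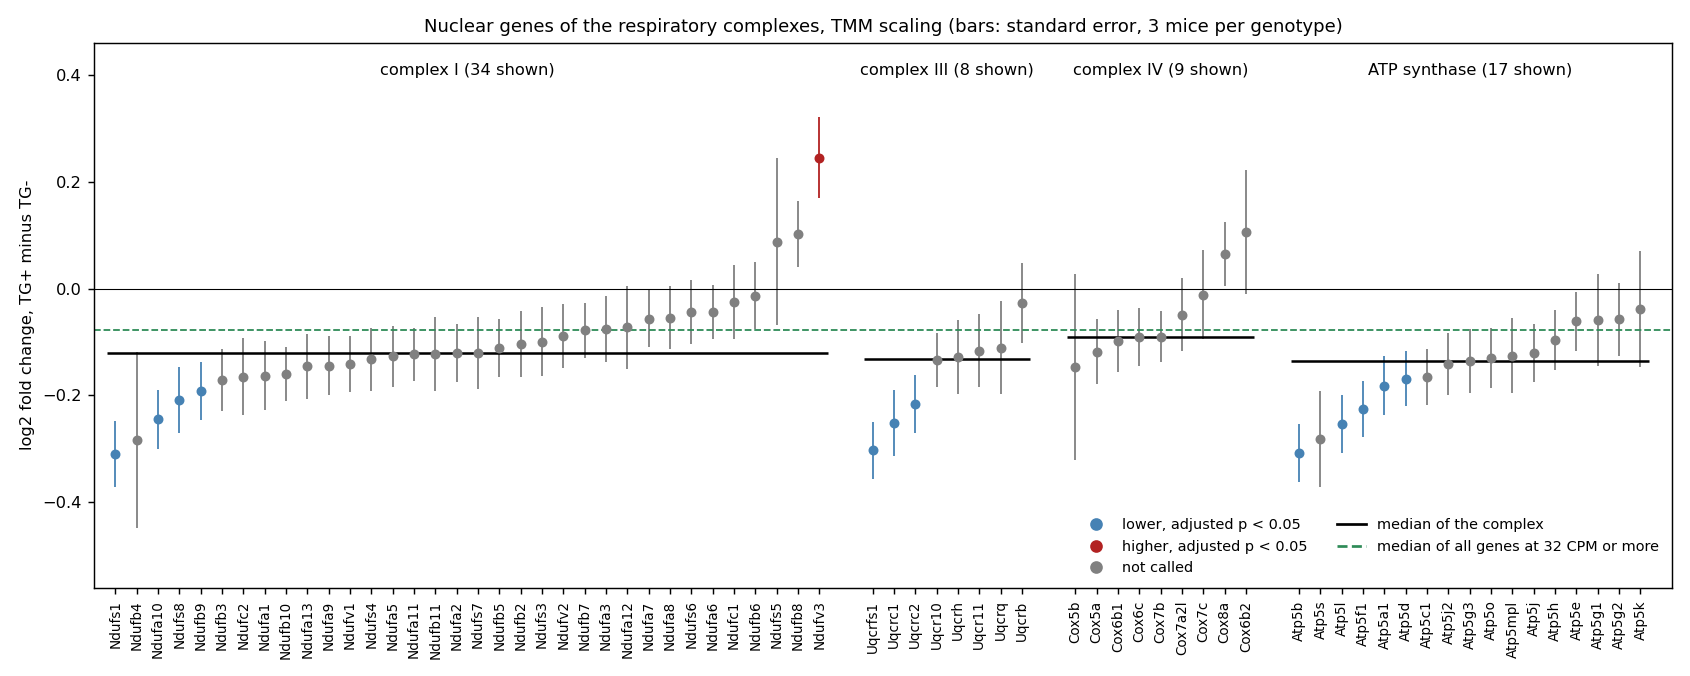
Log2 fold change (TG+ minus TG-, vertical axis) of 68 of the 69 genes (1 is not shown), grouped by complex and ordered by value, with bars of 1 standard error from 3 mice per genotype. Under TMM scaling 63 of 68 points lie below 0, and the 12 points called lower are all in complexes I and III and the ATP synthase, none in complex IV. Under library size alone 33 of the 68 lie above 0.

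The standard error given with each log2 fold change is derived from edgeR's F statistic. With 3 mice in each genotype only 20 assignments are possible, so that an exact permutation test of a single gene has a smallest 2-sided p of 0.1, and it gave 0.1 for each of the 14 called genes. The labels and methods say that the samples are separate mice, so the spread is between animals. Fewer cells of a type and less RNA per cell cannot be told apart in these bulk samples.

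In complex I the core subunits of the matrix arm, which carry flavin and iron-sulfur clusters, gave 3 of the 5 lower calls. The 5 are 14.3% of the 35 genes, against 10.9% of all genes tested and 24.1% of those at 32 CPM or more, and whether core and accessory subunits differ was not tested. Ndufs1, the large iron-sulfur subunit at the NADH-oxidizing end, had 241.0, 256.9 and 249.9 CPM in TG+ 43-29, 43-49 and 43-75. In TG- 43-26, 43-50 and 43-76 it had 298.8, 330.2 and 297.9 CPM. All TG+ mice lay below all TG- mice, and mRNA levels fell by 19.3% (log2 fold change -0.31, standard error 0.06, adjusted p = 0.0090 in edgeR's test).

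Ndufs8, an iron-sulfur protein on the path to ubiquinone, had 71.8, 76.2 and 76.0 CPM in the TG+ mice and 82.6, 92.5 and 83.9 CPM in the TG- mice, in the same order of mice (log2 fold change -0.21, standard error 0.06, adjusted p = 0.0405, edgeR). TG- 43-50 was the highest of the 6, and no TG+ value reached a TG- value.

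The other 4 core subunits did not pass the test. Ndufv1, which binds FMN and oxidizes NADH, came closest, with means of 247.6 ± 9.39 CPM in TG+ and 273.0 ± 6.12 CPM in TG- (SD, n = 3 each), groups that did not overlap and an adjusted p of 0.0873 (log2 fold change -0.14, edgeR). Ndufs7, Ndufs3 and Ndufv2, which also belong to the matrix arm, had log2 fold changes of -0.12, -0.099 and -0.088 (adjusted p of 0.227, 0.293 and 0.316 in edgeR's test). The 7 core subunits together had a median of -0.14.

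Among the 28 accessory subunits of complex I, 2 were lower (7.14%), against 10.9% of all genes tested and 24.1% of those at 32 CPM or more. Only 1 was higher, against 15.4% and 10.6%, and the median of the 28 was -0.12. Ndufa10, an accessory subunit on the matrix face related to nucleoside kinases, had 166.1, 157.1 and 172.1 CPM in the TG+ mice and 190.5, 197.4 and 198.8 CPM in the TG- mice. The groups were separate and levels fell by 15.6% (log2 fold change -0.24, standard error 0.06, adjusted p = 0.0155, edgeR). Ndufb9, a membrane arm subunit of the LYR family, had 182.4, 181.5 and 190.3 CPM in TG+ and 211.9, 218.6 and 202.2 CPM in TG- (log2 fold change -0.19, standard error 0.05, adjusted p = 0.0350, edgeR).

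Ndufv3, a small accessory subunit at the NADH-oxidizing end, went the other way. It had 184.7, 152.5 and 173.5 CPM in the TG+ mice and 145.7, 146.5 and 138.6 CPM in the TG- mice. All TG+ values were above all TG- values, but TG+ 43-49 exceeded the highest TG- mouse only slightly (log2 fold change 0.25, standard error 0.08, adjusted p = 0.0489, edgeR). Leaving out single mice gave adjusted p of 0.0098 to 0.162, and only the fit without 43-49 kept the call.

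The values just on either side of the limit show how thin it is. Ndufv3 stood inside with an adjusted p of 0.0489, while Ndufb10, a membrane arm subunit, stood outside with 0.05004 (log2 fold change -0.16, edgeR), its 3 TG+ mice all below its 3 TG- mice. Ndufb4 had the second lowest value of complex I, -0.28, but only 831 reads in all and a standard error of 0.16, and its adjusted p was 0.244. The abundant Ndufa6, an LYR subunit in the matrix arm, had 116.6, 115.9 and 117.2 CPM in TG+ against 120.7, 123.9 and 115.7 CPM in TG-, which overlap (log2 fold change -0.043, adjusted p = 0.570, edgeR).

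In complex III the 2 core proteins, which are relatives of the mitochondrial processing peptidase, and the Rieske iron-sulfur protein were lower in TG+, which is 3 of 8 genes (37.5%), against 10.9% of all genes tested and 24.1% of those at 32 CPM or more. None of the 5 small subunits passed the test, with 1 of the 5 at an unadjusted p below 0.05 in edgeR (against 39.1% of all genes tested) and none called by DESeq2, but all 5 had log2 fold changes below 0, and whether the roles differ was not tested. Uqcrfs1, the Rieske protein that takes electrons from ubiquinol, had 327.6, 325.7 and 333.9 CPM in the TG+ mice and 399.6, 425.9 and 392.0 CPM in the TG- mice. The TG+ mice lay close to each other and below every TG- mouse (log2 fold change -0.30, standard error 0.05, adjusted p = 0.0060, edgeR).

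Uqcrc1 had 290.8, 301.8 and 298.4 CPM in TG+ and 337.9, 380.8 and 342.6 CPM in TG- (log2 fold change -0.25, standard error 0.06, adjusted p = 0.0210, edgeR). Uqcrc2 had 334.6, 324.6 and 349.2 CPM in TG+ and 379.3, 404.3 and 388.0 CPM in TG- (log2 fold change -0.22, standard error 0.05, adjusted p = 0.0236, edgeR). For both the groups did not overlap. The small subunits Uqcr10, Uqcrh, Uqcr11 and Uqcrq had log2 fold changes between -0.13 and -0.11 and adjusted p between 0.0899 and 0.390 (edgeR). In Uqcr10 and Uqcr11 every TG+ mouse lay below every TG- mouse, as in 20.8% of all genes tested and 39.2% of those at 32 CPM or more. With libraries scaled by size alone Uqcr11 and Uqcrq came to 0.0047 and 0.011. Uqcrb, a small subunit on the matrix side, overlapped fully, with 12.9, 12.3 and 14.0 CPM in TG+ and 13.5, 13.5 and 12.9 CPM in TG- (log2 fold change -0.027).

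The complex IV genes gave no call. Of the 9, none had an unadjusted p below 0.05 in edgeR's test, against 39.1% of all genes tested and 49.2% of those at 32 CPM or more, and none was called by DESeq2. Their median was -0.090, 7 lay below 0 and 2 above, and in 4 of the 9 (44.4%) every TG+ mouse was below every TG- mouse, near the 39.2% of all genes at 32 CPM or more (20.8% of all genes tested). These 4 were Cox5a, Cox6b1, Cox6c and Cox7b, with log2 fold changes between -0.12 and -0.090, which became 0.0020 to 0.029 with libraries scaled by size alone. Cox6b1, a subunit facing the intermembrane space, had 170.3, 155.7 and 174.9 CPM in TG+ and 178.8, 179.1 and 178.3 CPM in TG- (adjusted p = 0.257, edgeR). Its TG- mice were nearly equal, and its TG+ mice were more spread, with 43-49 the lowest.

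Cox8a, a small membrane-spanning subunit, had 237.6, 222.7 and 250.2 CPM in TG+ and 220.4, 231.1 and 228.1 CPM in TG-. The groups overlapped, and TG+ minus TG- was 0.064 on the log2 scale (standard error 0.06, adjusted p = 0.471, edgeR), which came to 0.18 with an adjusted p of 0.0320 when libraries were scaled by size alone. Cox6b2, a subunit isoform known from testis, stood at 3.24 to 4.02 CPM over the 6 mice and gave the highest value of the complex, 0.11 (adjusted p = 0.547). Cox5b had the lowest, -0.15, on 464 reads over all libraries and with a standard error of 0.17.

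In the ATP synthase all 17 log2 fold changes were below 0 under TMM scaling, with a median of -0.14, and 5 genes (29.4%) were called lower, against 10.9% of all genes tested and 24.1% of those at 32 CPM or more. Of these 5 calls 3 were in the F1 part, made of the head with the catalytic sites and the central stalk, and whether the parts of the complex differ was not tested. Atp5b, the catalytic beta subunit and the gene with the most reads of the 69, had 2411, 2406 and 2436 CPM in the TG+ mice and 2914, 3138 and 2923 CPM in the TG- mice. Its TG+ mean was 2417 ± 16.4 CPM against 2992 ± 127 CPM in TG- (SD, n = 3 each), and levels fell by 19.2% (log2 fold change -0.31, standard error 0.05, adjusted p = 0.0058, edgeR).

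Atp5a1, the alpha subunit, had 1770, 1752 and 1793 CPM in TG+ and 1934, 2110 and 1986 CPM in TG- (log2 fold change -0.18, standard error 0.05, adjusted p = 0.0441, edgeR). Atp5d, the delta subunit of the central stalk, had 270.6, 261.8 and 274.5 CPM in TG+ and 297.7, 312.5 and 296.9 CPM in TG- (log2 fold change -0.17, standard error 0.05, adjusted p = 0.0455, edgeR). In both the groups were separate. Atp5c1, the gamma subunit, had a log2 fold change of -0.17 and missed the threshold narrowly in edgeR with an adjusted p of 0.0523. Of the 5 genes of the F1 part DESeq2 called 4 lower, against 3 in edgeR. Atp5e, the epsilon subunit, had -0.061 and overlapping groups (adjusted p = 0.457).

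Outside the F1 part, Atp5f1, subunit b of the peripheral stalk, had 90.2, 92.0 and 93.7 CPM in TG+ and 107.0, 111.8 and 103.5 CPM in TG- (log2 fold change -0.22, standard error 0.05, adjusted p = 0.0173, edgeR). The other 3 stalk genes, Atp5o, Atp5j and Atp5h, were not called, although their groups did not overlap either. Every TG+ mouse was also below every TG- mouse in 20.8% of all genes tested and 39.2% of those at 32 CPM or more. Atp5l, subunit g of the membrane part, had 37.4, 34.9 and 37.6 CPM in TG+ and 42.6, 44.1 and 44.3 CPM in TG- (log2 fold change -0.25, standard error 0.05, adjusted p = 0.0127, edgeR). Atp5s, which is not a subunit, gave -0.28 on the log2 scale (standard error 0.09) and missed the threshold in edgeR with an adjusted p of 0.0531, while DESeq2 called it lower.

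The 3 c ring genes encode the same mature protein with different import sequences, and none was called (0 with an unadjusted p below 0.05 in edgeR, 0 by DESeq2). Atp5g3 carried nearly all of the reads, with 512.0, 487.2 and 517.0 CPM in TG+ and 554.1, 586.2 and 525.6 CPM in TG- (log2 fold change -0.14, adjusted p = 0.134). Atp5g1 and Atp5g2 were at 9.83 to 11.8 and 13.2 to 14.8 CPM over the 6 mice, with log2 fold changes of -0.059 and -0.057 and overlapping groups. Atp5k, subunit e of the membrane part, had the value nearest 0 in the complex, -0.038 (adjusted p = 0.834).

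**Figure D2:**
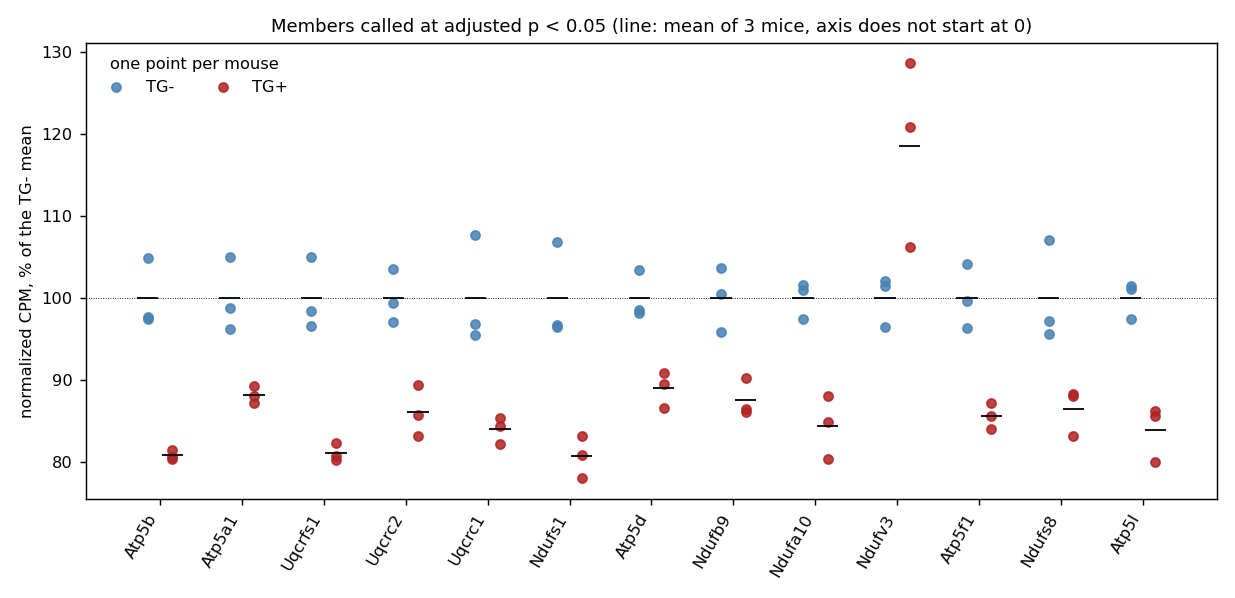
Normalized CPM of 13 of the 14 called genes in each mouse, as a percentage of the TG- mean of the gene (vertical axis), with 1 point per mouse and a line at the mean of 3. The 12 lower genes shown keep all TG+ points below all TG- points, and Ndufv3 shows the reverse with TG+ 43-49 nearest to the TG- mice.

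The calls rested on few mice. Across the 6 fits that left out 1 mouse each, between 5 and 9 genes were lower: 5 without TG- 43-50 or without TG- 43-76, 6 without TG+ 43-29, 8 without TG+ 43-49 or without TG+ 43-75, and 9 without TG- 43-26. Ndufs1, Uqcrfs1 and Atp5b were called in all 6 of these fits, and they were also the 3 genes that remained lower with libraries scaled by size alone. Atp5a1, Atp5d and Ndufb9 were called in none of the 6 (adjusted p of up to 0.122). The TG- mouse 43-50 had the highest level of the 69 genes, with a median of 0.113 above the mean of the 6 mice on the log2 scale, against 0.041 and 0.036 in the other TG- mice and -0.014 to -0.100 in the TG+ mice.

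The kidneys of a mouse gave a measure of the spread within an animal. The median absolute log2 difference between kidney 1 and kidney 2 over the 69 genes was 0.0420 to 0.0626 per mouse, against 0.0398 to 0.0569 over all genes at 32 CPM or more. The widest gaps were in genes with few reads, such as 0.599 for Cox5b in TG+ 43-75. The biological coefficient of variation was 0.0421 between kidneys of a mouse and 0.115 between mice of a genotype. The first was estimated on single libraries with TMM factors and the second on summed counts without them, so they are not like measures. Kidney 1 alone gave 10 lower and 0 higher genes, and kidney 2 alone gave 8 lower and 1 higher.

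Whether the complexes moved by the same amount was asked with ratios of raw reads within each mouse, which no scaling of libraries can change. These ratios were chosen after the values above had been seen and are given without a test. Reads on complex IV genes per read on ATP synthase genes were 0.134, 0.129 and 0.135 in the TG+ mice and 0.119, 0.114 and 0.118 in the TG- mice. The 9 complex IV genes of the rule thus took a larger share relative to the ATP synthase genes in every TG+ mouse than in any TG- mouse. This sum is only a part of complex IV. Of the 8 complex IV genes outside the rule, Ndufa4 and Cox4i1 among them, 4 had log2 fold changes below 0 and 4 above. Complex IV relative to complex III went the same way, at 0.567 to 0.598 in TG+ and 0.504 to 0.530 in TG-, and so did complex IV relative to complex I, at 0.238 to 0.248 and 0.226 to 0.236. Complex I relative to the ATP synthase was 0.540 to 0.545 in TG+ and 0.5001 to 0.5103 in TG-.

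Within complexes the ratios separated the genotypes as well. The core subunits of complex I relative to its accessory subunits stood at 0.490, 0.516 and 0.488 in the TG+ mice and at 0.528, 0.547 and 0.537 in the TG- mice. The core sum includes Ndufs1, the lowest log2 fold change of complex I, and the accessory sum includes Ndufv3, the highest. The medians of core and accessory genes were closer, at -0.14 and -0.12, and the ratio without these genes was not tested. In complex III the core and Rieske proteins relative to the small subunits stood at 2.74, 2.69 and 2.65 in TG+ and at 2.94, 2.97 and 2.97 in TG-. In both, all TG+ mice lay below all TG- mice. Atp5b relative to Atp5a1, its partner in the catalytic head, was 1.36 to 1.37 in TG+ and 1.47 to 1.51 in TG-. Summed ratios are weighted by the most abundant genes, and Atp5b and Atp5a1 hold 72.7% of the reads of the ATP synthase. In complex IV the largest share is that of Cox8a, at 29.5%. Without Cox8a, a choice also made after seeing the data, complex IV relative to complex I was 0.167 to 0.172 in TG+ and 0.162 to 0.169 in TG-, which overlap. Relative to the ATP synthase it was 0.0901 to 0.0928 and 0.0819 to 0.0862, and relative to complex III 0.397 to 0.415 and 0.361 to 0.382, which do not.

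**Figure D3:**
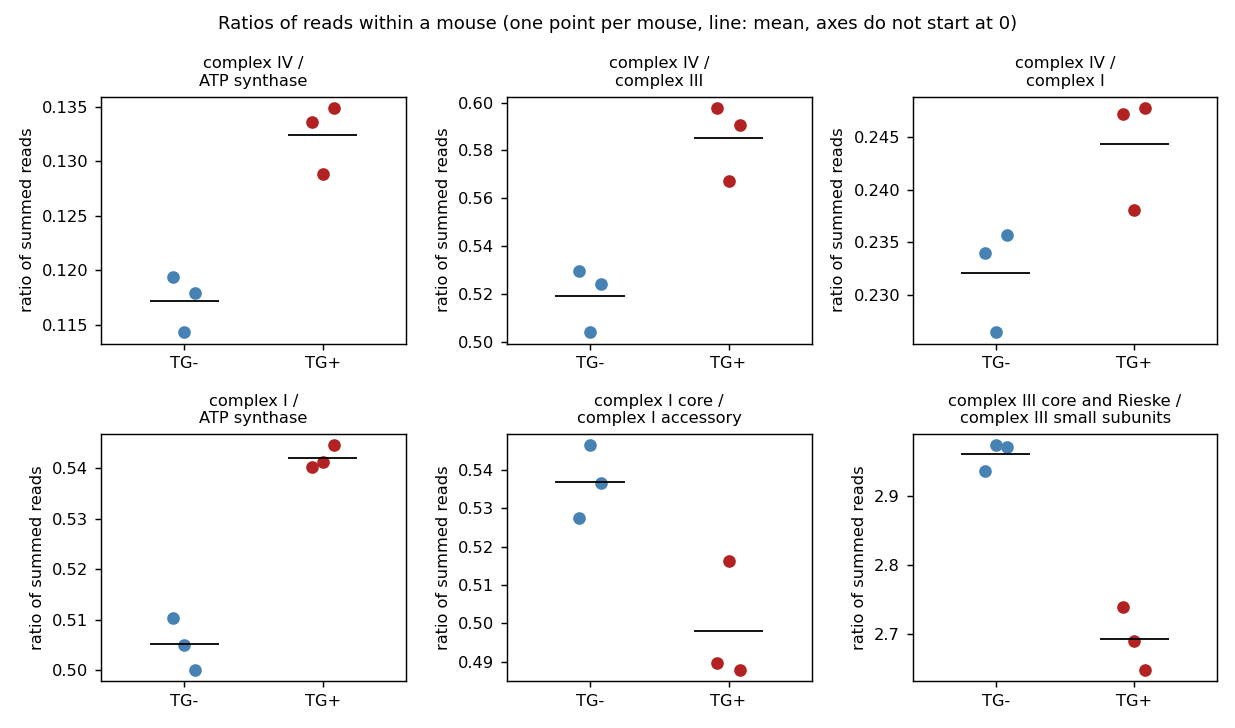
Ratios of summed reads between groups of genes within each mouse (vertical axes, not starting at 0), with 1 point per mouse and a line at the mean of 3. In each of the 6 panels the TG+ and TG- mice do not overlap, with complex IV relative to the ATP synthase at 0.129 to 0.135 in TG+ and 0.114 to 0.119 in TG-. Complex IV here is only the 9 genes of the rule, and without Cox8a its ratio to complex I overlaps.

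**Figure D4:**
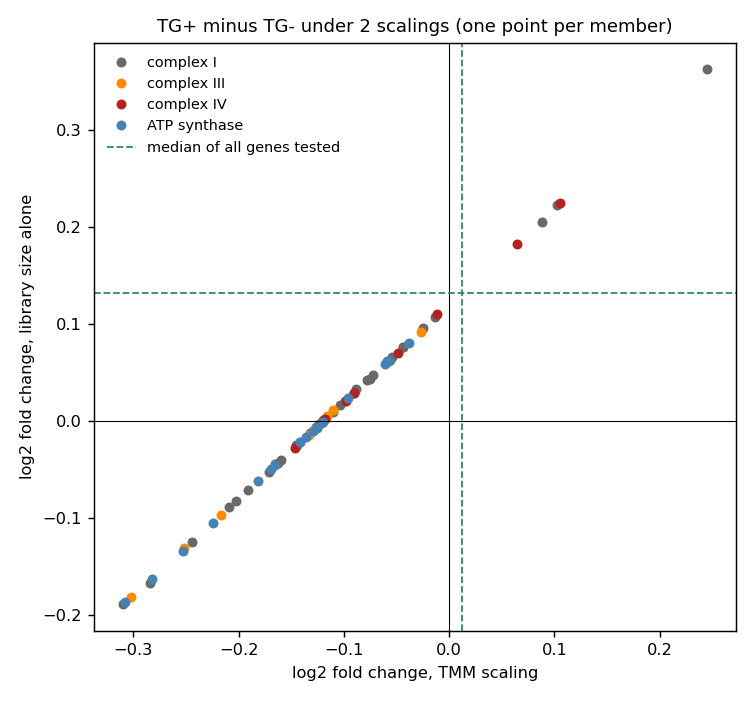
Log2 fold change of each of the 69 genes with TMM scaling (horizontal axis) and with libraries scaled by size alone (vertical axis), coloured by complex. The points lie on a line that is shifted upward, and the dashed lines at the median of all genes tested, 0.012 and 0.13, move with them, so 5 of the 69 lie above that median under size alone.

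The size of the difference was related to length and abundance only weakly. Across the 69 genes, the Pearson correlation of the log2 fold change with log2 exon length was -0.268 and that with log2 mean CPM was -0.308. Over 5561 genes at 32 CPM or more they were -0.0694 and -0.0986. The points share libraries and genes are not independent replicates, so these are descriptions.

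Levels of different genes can be set side by side only per length. Among the 69 genes the deposited RPKM in TG- cortex was highest for Cox8a at 420.4 ± 9.63, Atp5b at 384.4 ± 15.5, Cox6b1 at 357.9 ± 0.258, Ndufb9 at 327.9 ± 12.4 and Uqcrfs1 at 301.1 ± 12.5 (SD, n = 3 mice). Cox4i1, which the rule did not take in, stood above them at 640.2 ± 14.6. Cox8a and Atp5b were further apart than their spread, and so were Atp5b and Cox6b1, while Ndufb9 and Uqcrfs1 lay near the edge of theirs. The lowest were Ndufs5 at 1.859, Atp5g1 at 1.876 and Cox5b at 1.543. This order depends on the gene length that was used. With CPM per kilobase of the longest protein-coding transcript in GENCODE M21, Atp5b was first at 1561, followed by Atp5g3 at 768.0, Atp5a1 at 751.7 and Cox8a at 411.9, and the quotient of both scales ranged from 0.589 for Atp5mpl to 8.54 for Atp5j. Cox5b was last on both.

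Many of these genes have processed copies in the mouse genome, so reads can be shared. Of the 69 longest transcripts, 29 had no 51-base window in common with a transcript of another gene, 40 had some, and 16 shared more than 20% of their windows. Atp5l shared 84.8%, the only one above 50%. Of the 13 genes called lower, 4 were above 20%: Atp5l, Atp5f1 (38.3%), Uqcrc2 (24.8%, all with Pdzd9) and Ndufb9 (23.2%, all with Gm49356). How the counter treated such reads, and reads of overlapping genes on either strand, is not given in the sources used here, so the values of these 4 are uncertain. The median log2 fold change was -0.124 in the 16 genes and -0.121 in the other 53, of which 9 were called lower.

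Copies that the rule left out held reads of their own. Ndufs6b had 8867 reads against 11804 for Ndufs6, Cox6c2 had 14515 against 32556 for Cox6c, and Atp5k-ps2 had 5451 against 3396 for Atp5k. The pseudogenes Atp5l-ps1 and Atp5l2-ps were called lower with log2 fold changes of -0.25 and -0.26 (adjusted p of 0.0245 and 0.0321, edgeR), near the -0.25 of Atp5l.

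The remaining carriers of the chain were compared from lists chosen by function. Of the 4 complex II genes, which join the TCA cycle to the chain and have no mitochondrially encoded subunit, 3 were lower (against 10.9% of all genes tested and 24.1% of those at 32 CPM or more): Sdhb (log2 fold change -0.28, adjusted p = 0.0129), Sdha (-0.21, 0.0309) and Sdhd (-0.20, 0.0189), all in edgeR's test. Sdhc had -0.16 with an adjusted p of 0.0817. Cycs, cytochrome c itself, had 84.9, 73.6 and 80.0 CPM in TG+ and 104.5, 91.5 and 94.0 CPM in TG- (log2 fold change -0.28, adjusted p = 0.0285), and Cyc1 had -0.17 with an adjusted p of 0.0716.

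Among the 8 complex IV genes outside the rule, Ndufa4, which sits in complex IV, was lower at -0.42 (adjusted p = 0.0016). Ndufa4l2, its HIF1α-regulated relative, had 2.33 to 3.68 CPM in the TG- mice and rose to between 163.0 and 238.0 CPM in the TG+ mice, and Cox4i2, the hypoxia-associated isoform of subunit 4, rose from at most 0.350 CPM to at least 4.04 CPM. Cox4i1, the common isoform, had -0.15 with an adjusted p of 0.0693. Of 13 mitochondrially encoded transcripts 7 could be tested, and all 7 were lower, against 10.9% of all genes tested and 24.1% of those at 32 CPM or more. Their log2 fold changes were -0.36 (mt-Nd2) to -0.48 (mt-Nd4). The other 6, the abundantly transcribed mt-Co2, mt-Co3 and mt-Atp6 among them, are listed with 0 to 270 reads in all, against 1536751 or more for each of the 7, so their table values are not taken as levels, and the cause was not tested.

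Of 41 assembly factors 6 (14.6%) were lower, against 10.9% of all genes tested. In complex I 1 of 14 was lower, Tmem126b (-0.27), and in complex III 0 of 6. In complex IV 4 of 17 (23.5%) were lower, namely Cox15 (-0.43), which acts in heme A synthesis, Cox20 (-0.28), Coa7 (-0.22) and the copper chaperone Sco2 (-0.21). In the ATP synthase 1 of 4 was lower, Tmem70 (-0.26). None of these factors was called higher.

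Of 14 regulators of mitochondrial biogenesis, 2 were lower (14.3%, near the 10.9% of all genes tested) and 1 was higher (against 15.4% of all genes tested). Esrra, the estrogen-related receptor alpha that works with PGC-1 coactivators, had 96.8, 125.3 and 108.1 CPM in the TG+ mice and 136.8, 158.1 and 147.1 CPM in the TG- mice (log2 fold change -0.42, standard error 0.10, adjusted p = 0.0188, edgeR). Tfam, which packages and transcribes mitochondrial DNA, had -0.22 (adjusted p = 0.0173). Myc had 3.77 to 14.0 CPM in the TG- mice and rose to between 25.4 and 35.5 CPM in the TG+ mice (log2 fold change 1.88, adjusted p = 0.0108). Nrf1, with 16.8 to 20.7 CPM in TG+ and 17.3 to 20.4 CPM in TG-, had 0.0012 (adjusted p = 0.993), and Ppargc1a, the gene of PGC-1 alpha, had -0.17 (adjusted p = 0.0903).

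Of 19 other mitochondrial proteins 4 were lower, Hspd1 (-0.27), Opa1 (-0.22), Mfn2 (-0.22) and Immt (-0.20), and the protease Lonp1 was higher (0.34, adjusted p = 0.0077). Of 77 genes of the mitochondrial ribosome 13 were lower and 0 higher, with a median of -0.091. The shares called lower, 21.1% of the 19 and 16.9% of the 77, lay between the 10.9% of all genes tested and the 24.1% of genes at 32 CPM or more. The median of the 69 respiratory genes, -0.12, lay between that value and those of complex II (-0.20) and of the mitochondrial transcripts (-0.38).

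**Figure D5:**
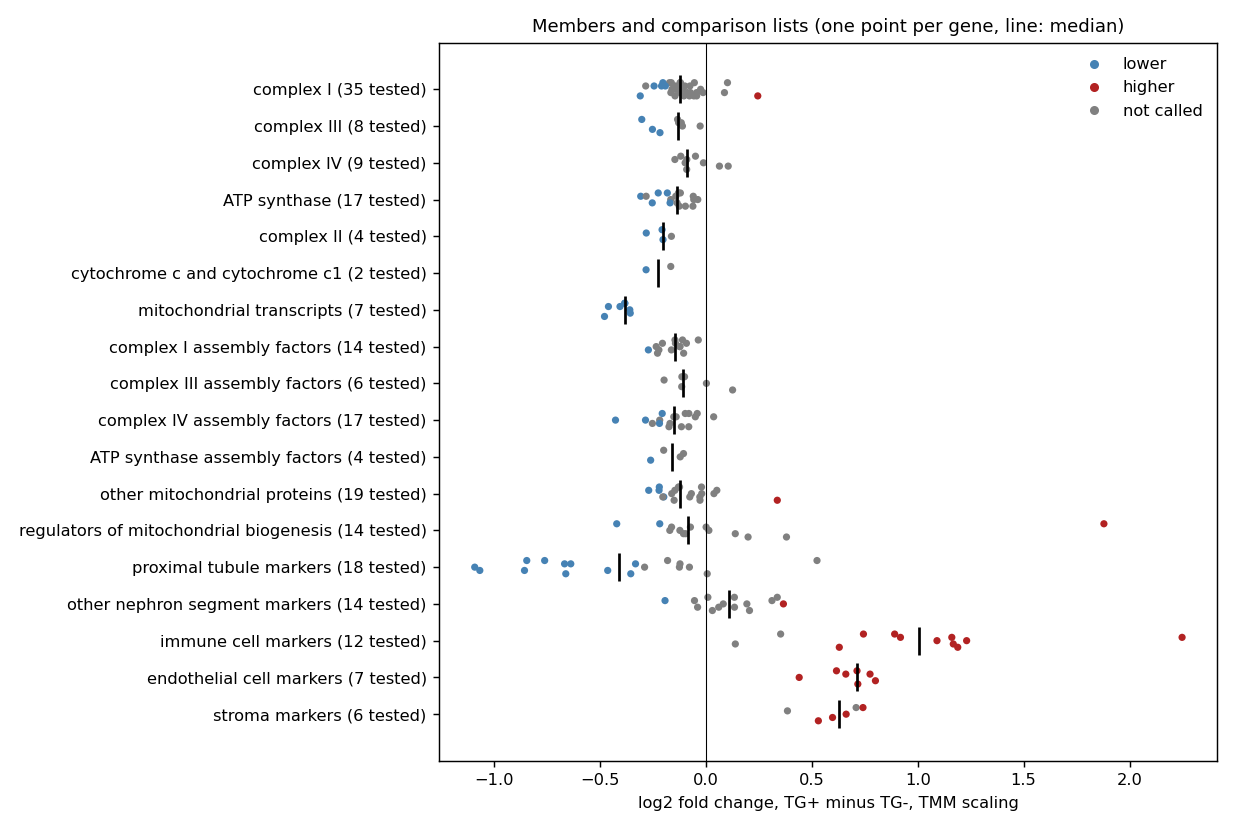
Log2 fold change (TG+ minus TG-, horizontal axis, TMM scaling) of every tested gene in the 4 groups of nuclear respiratory genes and in the comparison lists, with 1 point per gene and a line at the median. The respiratory groups have medians between -0.14 and -0.090, proximal tubule markers -0.41, and immune markers 1.01. With libraries scaled by size alone the complex IV median is 0.029.

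Markers of the cell types in the slice moved with genotype too, and these values stand beside every difference above. Of 18 proximal tubule markers 11 were lower and 0 higher (median -0.41), and their summed level was 41070 to 43280 CPM in the TG+ mice and 53770 to 58600 CPM in the TG- mice. The largest falls among them were Slc22a6 (-1.09), Cyp4b1 (-1.07), Slc22a8 (-0.86) and Acsm2 (-0.85). The list was not uniform: 16 of the 18 lay below 0 and 2 above, namely Pck1 (0.52) and Fbp1 (0.0065). Neither was called, nor was Kap (-0.078). Immune markers were higher for 10 of 12 genes (summed 137.8 to 140.5 CPM in TG+, 81.8 to 86.4 CPM in TG-), endothelial markers for 7 of 7 (617.4 to 661.7 and 354.7 to 463.3 CPM) and stroma markers for 4 of 6 (225.6 to 277.9 and 144.7 to 174.1 CPM). Of 14 markers of other nephron segments 1 was lower and 1 was higher (4241 to 5617 and 4477 to 4607 CPM). No marker was at 0 in any mouse, and the part of these shifts in the values of the respiratory genes was not tested.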

How the data were processed

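RNA of kidney cortex was sequenced by the authors as 51-bp single-end reads and analysed with the Tuxedo tools; the submitters' processing notes name mm9, and the counting program, annotation and strand setting are not given in the sources used here. The authors deposited 1 table with read counts per gene, not normalized, and RPKM values scaled by a method the header calls BUQ, plus their own fold changes and p-values, which were not used. Counts of the 2 kidneys were summed per mouse, since kidneys of a mouse are not independent. Genes were filtered with filterByExpr, scaled by TMM and tested with edgeR 4.0.16 (limma 3.58.1, R 4.3.3, quasi-likelihood test, Benjamini-Hochberg over 19399 genes), and the procedure was tested on simulated data. Calls are at an adjusted p below 0.05 without a minimum fold. Totals per mouse were 48052131 to 60506785 reads.

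The genes and lists were chosen with earlier results of these data known. Genes named are all those called, the highest and lowest log2 fold change and the 2 highest RPKM in TG- of each complex, the core subunits of complexes I and III, the F1 head and the c ring, and up to 4 called genes per list; others (such as Ndufb10, Ndufb4, Atp5s, uncalled genes of the lists and the pseudogenes) were chosen after their values were seen. Symbols and transcripts came from GENCODE M21, matched by identifier for 32642 genes. Alternatives were DESeq2 1.42.0, other scalings and filters, single kidneys, a block for mouse pairs and leaving out each mouse. Ratios within a mouse, CPM per kilobase and the limit on shared windows were added after seeing the data. Python 3.11.15 and matplotlib 3.10.9 made tables and plots. Values of 1 complex I gene are not reported here, though it is in the counts.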

Additional observations from a re-analysis of the deposited data

How the results depend on the processing

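Against 13 lower and 1 higher gene, an adjusted p below 0.01 left 3 and 0, and treating each kidney as its own library, which counts mice more than once, gave 32 and 2. Kidney 2 alone gave 8 lower genes, kidney 1 alone 0 higher genes, and no filter and upper-quartile scaling gave 0 higher genes each. Leaving out genes with over 20% shared windows, an alternative chosen after seeing the data, left 9 lower genes of 53. Library size alone gave 3 lower and 3 higher genes and medians of -0.0020 (complex I), -0.012 (complex III), 0.029 (complex IV, reversed) and -0.016 (ATP synthase). With it 28 genes that were below 0 turned above 0. Those named by rule were Atp5e (0.059), Atp5g1 (0.062), Atp5g2 (0.062), Atp5k (0.080), Cox6b1 (0.021), Ndufa6 (0.0765), Ndufs3 (0.020), Ndufs7 (0.0012), Ndufv2 (0.033) and Uqcrb (0.092), and others were Cox5a (0.0020), Cox6c (0.028), Cox7b (0.029), Atp5h (0.023), Uqcr11 (0.0047) and Uqcrq (0.011). Cox6b2 turned to -0.046 in kidney 1 alone, and Atp5k and Ndufs3 to 0.0040 and 0.0068 in kidney 2 alone, where the complex IV median was -0.047. Leaving out single mice gave 5 to 9 lower and 0 to 1 higher genes, medians of -0.19 to -0.13 (complex III) and -0.11 to -0.054 (complex IV), and ranges of -0.17 to 0.044 for Atp5k and -0.093 to 0.011 for Uqcrb. The causes were not tested. DESeq2 gave 16 lower and 1 higher, and centring on the median gene gave 13 and 1. The count at the threshold of the study was 0 under each alternative run.

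The name of the deposited table lists the mice in pairs. With these pairs as a replicate block, 12 genes were lower and 1 was higher, and 11 of the 12 were among the 13. Atp5a1 (adjusted p = 0.0891) and Atp5d (0.064) were not called with the block, and Atp5s (0.0274) was (edgeR). Deviations from the genotype means correlated at 0.283 and 0.307 in 2 pairs and at -0.0599 in the third, so the numbers were not taken to pair the mice.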
